A study of Mus musculus with 12 samples.

Results

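Calcium extrusion was described here through 9 genes of the 24100 in the deposited count table: the sodium-calcium exchanger genes Slc8a1, Slc8a2 and Slc8a3, the potassium-dependent exchanger gene Slc24a2, the plasma membrane calcium pump genes Atp2b1, Atp2b2, Atp2b3 and Atp2b4, and the endoplasmic reticulum (ER) calcium pump gene Atp2a2. The genes were taken by symbol, all 9 were found, and all 9 passed the filter on low counts in every comparison. The set was chosen from the response to the Dek hairpin in these same libraries. The values of Dek hairpin against scrambled hairpin, and of every comparison that shares those libraries, are therefore given for the 9 genes as a description. Calls at an adjusted p below 0.05 are stated there only to place the 9 genes beside all genes. They are not used as tests, and no p is printed with them.

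RNA was sequenced from primary cultures of entorhinal cortex (EC), the cortical region that links neocortex and hippocampus, dissected from C57BL/6J mouse embryos at embryonic day 17. Every culture received an adeno-associated virus of serotype 1 (AAV1) that also encodes the red fluorescent protein mCherry, at 7 days in vitro and at 1e+10 viral genomes per ml, and RNA was taken 4 days later. The Dek hairpin group carried a hairpin against mouse Dek behind the U6 promoter, which is active in all cell types, and its control, the scrambled hairpin group, carried a scrambled hairpin behind the same promoter. The Dek cDNA group carried the mouse Dek coding sequence behind the human synapsin promoter (hSyn1), which is active mainly in neurons, followed by mCherry after an internal ribosome entry site, and its control, the empty vector group, carried hSyn1, mCherry and a WPRE element. Each group had 3 libraries from separate wells. Nothing in the records says that wells of a group came from separate dissections, so p-values measure the spread between these wells. The Dek hairpin is 1 hairpin sequence, and no second hairpin was sequenced.

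Neurons let calcium in through channels and must clear it again from the cytosol. Exchangers of the SLC8 family swap it for extracellular sodium, and SLC24 exchangers do the same while also carrying potassium out. Both have high capacity and draw on the sodium gradient. The plasma membrane calcium ATPases (PMCA, Atp2b genes) bind calcium more tightly, spend ATP and are activated by calmodulin. The sarco/endoplasmic reticulum ATPase SERCA2, the product of Atp2a2, does not export calcium from the cell but returns it to the ER store.

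Hairpin RNAs can also bind other transcripts through short matches in 3′ UTRs, so the bases that pair with each hairpin were looked up in the 9 genes. The response of these genes to the Dek hairpin was already known when this was done. The Dek hairpin targets 21 bases of coding sequence in exon 6 of 11 of Dek, on the minus strand at chr13:47099377-47099397 of GRCm38 (mm10), shown here with the run that holds both heptamers in capitals.
Dek target: cgaactcgtgAAGAGGATCTt
The heptamer AGGATCT pairs with bases 2 to 8 of the predicted guide strand, and AAGAGGA pairs with a guide that begins at its base 4. In the 3′ UTRs of GENCODE vM21, searched on the sense strand, AGGATCT occurred in 4 of the 9 genes and in 11.5% of 13482 tested genes with a 3′ UTR. AAGAGGA occurred in 6 of the 9 and in 17.4% of those genes. Of the 9 genes, 7 had a 3′ UTR of at least 1500 bases, and among the 5793 tested genes with a 3′ UTR that long the shares were 20.6% and 29.6%. The heptamer AAGAGGA was singled out by an earlier look at all heptamers in these data, so its presence supports nothing here. The matched heptamers of the scrambled hairpin, AGCACCA and AAGAGCA, occurred in 2 and 5 of the 9 genes, and in 12.4% and 18.9% of the 13482 tested genes with a 3′ UTR (21.5% and 32.9% of those with a long one).

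A choice of sites, from Slc8a1, from the exchanger genes Slc8a2 and Slc24a2 and from the pump genes Atp2b1 and Atp2b2, is printed with 11 bases on each side, the heptamer in capitals, because these genes include both the gene with the lowest log2 fold change in Dek hairpin against scrambled hairpin and a gene, Slc8a2, that did not lie below its control.
Slc8a1, AGGATCT, chr17:81384395-81384401, minus strand: aataaagtgagAGGATCTagcttgctcat
Slc8a2, AAGAGGA, chr7:16160087-16160093, plus strand: caggaccctcgAAGAGGAgaccgagggtc
Slc24a2, AAGAGGA, chr4:86991124-86991130, minus strand: tgtaagaggcaAAGAGGAcctccatcacc
Slc24a2, AAGAGGA, chr4:86988595-86988601, minus strand: gacagtcaaggAAGAGGAaactcatgcac
Atp2b1, AAGAGGA, chr10:99009845-99009851, plus strand: ctgaaagagcaAAGAGGAtgtagacttta
Atp2b2, AAGAGGA, chr6:113747447-113747453, minus strand: agacaagggagAAGAGGAgagaaggcttc
Atp2b2, AAGAGGA, chr6:113746027-113746033, minus strand: cctccagggcaAAGAGGAaggggttctct
The Slc8a1 site shown lies in a 3′ UTR of 15586 bases that 1 of 3 annotated transcripts with a 3′ UTR carries, at 4290 bases from its start. Slc8a2 carried the site in 2 of 2 transcripts and Atp2b1 in 1 of 5. Each Slc24a2 site lay in 2 of 4 transcripts, and the Atp2b2 sites lay in 3 of 4 and 2 of 4, in the order printed. Of the scrambled hairpin heptamers, Slc8a1 held 1 AGCACCA and 2 AAGAGCA sites, and Atp2b4 held 4 AAGAGCA sites. Atp2b4 held 3 AAGAGGA sites and 1 AGGATCT site in a 3′ UTR of up to 7234 bases, Slc8a3 held AGGATCT and no AAGAGGA, and Atp2b3 and Atp2a2, with 3′ UTRs of up to 746 and 811 bases, held none of the 4 heptamers. A match is a description of the annotated sequence and does not show binding.

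Estimated counts summed to 15679567 to 18933382 per library, and libraries of a group correlated at 0.989 to 0.995 on log2 CPM. Levels are in CPM, the usual scaling of counts to library size, here with TMM factors over all 12 libraries. Dek, which encodes a chromatin-binding protein, was at 7.98, 6.65 and 8.62 CPM in Dek hairpin libraries, against 35.3, 36.6 and 36.4 CPM in scrambled hairpin libraries, a log2 fold change (log2FC) of −2.23 (SE 0.10, edgeR adjusted p = 1.31e-08). It was at 156, 129 and 143 CPM in Dek cDNA libraries, against 36.0, 38.8 and 41.1 CPM in empty vector libraries (log2FC 1.89, SE 0.08, adjusted p = 1.36e-08). Between hairpin libraries 3730 of 14232 genes tested (26.2%) were called higher and 4060 (28.5%) lower at an adjusted p below 0.05. With library size alone in place of TMM these counts were 4793 and 3210. The groups did not overlap in 61.9% of the genes. Markers for 10 cell types were summed by list. The 9 pan-neuronal markers summed to 5700 to 6250 CPM in Dek hairpin libraries, against 6800 to 6980 CPM in scrambled hairpin libraries, with 6 called lower and 1 higher. Oligodendrocyte markers summed to 83 to 90.1 CPM in Dek hairpin libraries and 30.9 to 41.6 CPM in scrambled hairpin libraries, with 4 of 5 tested called higher and 1 lower, while 0 of 8 astrocyte markers were called. Oligodendrocyte precursor markers summed to 92.5 to 199 CPM in Dek hairpin and 62.3 to 110 CPM in scrambled hairpin libraries (3 of 5 called higher, 0 lower), and endothelial and mural markers to 9.59 to 10.5 CPM in Dek hairpin and 4.03 to 5.24 CPM in scrambled hairpin libraries (1 of 3 tested called higher, 0 lower). Microglial markers were near 0, at sums of 4.02 to 6.87 CPM in the 6 hairpin libraries. The part of these markers in the values below was not tested, and fewer cells of a type cannot be told apart from less RNA per cell in bulk cultures.

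Of the 9 genes, 6 were called lower and 1 higher in Dek hairpin neurons, 2 were not called, and the 3 Dek hairpin libraries lay wholly below the 3 scrambled ones for 6 genes and wholly above for 1. These counts stand beside the 28.5% lower, 26.2% higher and 61.9% not overlapping of all genes. Since the genes were chosen from this comparison, nothing is read from them. The median log2FC of the 9 genes was −0.29, beside 0.00 (−0.00108) over all genes tested.

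Slc8a1 (chromosome 17, 81373105 to 81738377, minus strand) encodes NCX1, the exchanger best known from heart muscle and also present in neurons. It was at 34.1, 28.1 and 29.2 CPM in Dek hairpin libraries, against 169, 155 and 169 CPM in scrambled hairpin libraries. Dek cDNA libraries held 209, 199.7 and 238 CPM, against 226, 246 and 233 CPM in empty vector libraries. The Dek hairpin libraries thus stood apart from the other 9, whose lowest value was 155 CPM. In Dek hairpin neurons the transcript was at 18.3% of its scrambled level, with a log2FC of −2.45 (SE 0.08), which ranked 13th from the lowest among 14232 genes. Leaving out each library in turn gave −2.53 to −2.40. Of the exon bases of Slc8a1, 1.57% are shared with an antisense gene on the opposite strand, and the strand setting of the counting is not given in the sources used here.

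Slc8a2 (chromosome 7, 16129826 to 16161063, plus strand) encodes NCX2, an exchanger found mainly in brain. It was at 93.0, 132 and 126 CPM in Dek hairpin libraries, against 77.5, 103 and 103 CPM in scrambled hairpin libraries, and the groups overlapped (log2FC 0.30, SE 0.18, not called). The first library was the lowest of its group in both. Without Dek hairpin replicate 1 the log2FC was 0.44 and the gene was called higher, as it was by the DESeq2 Wald test with all libraries (0.31). Slc8a3 (chromosome 12, 81197915 to 81333180, minus strand) encodes NCX3, an exchanger of brain and skeletal muscle. It was at 27.5, 27.5 and 23.7 CPM in Dek hairpin libraries, against 33.9, 32.2 and 36.5 CPM in scrambled hairpin libraries (log2FC −0.40, SE 0.09). All 3 values lay below the lowest scrambled value. The 3 exchanger genes of the SLC8 family thus spanned a log2FC from −2.45 to 0.30.

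Slc24a2 (chromosome 4, 86983124 to 87230477, minus strand) encodes NCKX2, a potassium-dependent exchanger of neurons. It had the lowest mean of the 9 genes per length in Dek hairpin and scrambled hairpin libraries, and in Dek cDNA libraries, where it overlapped Slc8a3. It was at 18.1, 16.1 and 13.5 CPM in Dek hairpin libraries, against 28.6, 29.8 and 28.8 CPM in scrambled hairpin libraries, with no overlap (log2FC −0.89, SE 0.10, 54.1% of the scrambled level). The lowest count behind any value of the 9 genes was its 254 in Dek hairpin replicate 3.

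Among the pumps, Atp2b2 (chromosome 6, 113743831 to 114042613, minus strand) encodes PMCA2, a fast pump of neurons and of the hair cells of the ear. It was at 124, 135 and 142 CPM in Dek hairpin libraries, against 215, 242 and 252 CPM in scrambled hairpin libraries (log2FC −0.84, SE 0.07, 56.0% of the scrambled level). It was the pump with the lowest log2FC. Atp2b1 (chromosome 10, 98914406 to 99026143, plus strand) encodes PMCA1, which nearly all cells use. It was at 213, 189 and 193 CPM in Dek hairpin libraries, against 237, 240.0 and 245 CPM in scrambled hairpin libraries (log2FC −0.29, SE 0.06). Once transcript length and GC content were corrected for, its log2FC was −0.06 and it was no longer called. Its transcript had the lowest GC content of the 9 genes, 42.6%, and the longest mean length, 7130 bases. Both were corrected for together, and the part of either was not tested.

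Atp2b3 (chromosome X, 73503086 to 73571005, plus strand) encodes PMCA3, a pump of neurons. It was at 87.7, 84.2 and 77.7 CPM in Dek hairpin libraries, against 91.2, 97.3 and 93.7 CPM in scrambled hairpin libraries (log2FC −0.19, SE 0.06). The groups were close, with 87.7 below 91.2, and the call was lost with library size alone (log2FC −0.09), without Dek hairpin replicate 3 (−0.15) and without scrambled hairpin replicate 2 (−0.17). Atp2b4 (chromosome 1, 133699457 to 133801041, minus strand) encodes PMCA4. It was at 58.8, 77.8 and 60.2 CPM in Dek hairpin libraries, against 42.7, 58.0 and 63.5 CPM in scrambled hairpin libraries, and the groups overlapped (log2FC 0.25, SE 0.18, not called). The spread within each group was of the size of the difference.

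Atp2a2 (chromosome 5, 122453513 to 122502225, minus strand) encodes SERCA2, which fills the ER store. It was the 1 gene of the 9 called higher, at 922, 871 and 818 CPM in Dek hairpin libraries, against 747, 681 and 679.6 CPM in scrambled hairpin libraries (log2FC 0.29, SE 0.06, 123% of the scrambled level). The groups did not overlap.

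**Figure D1:**
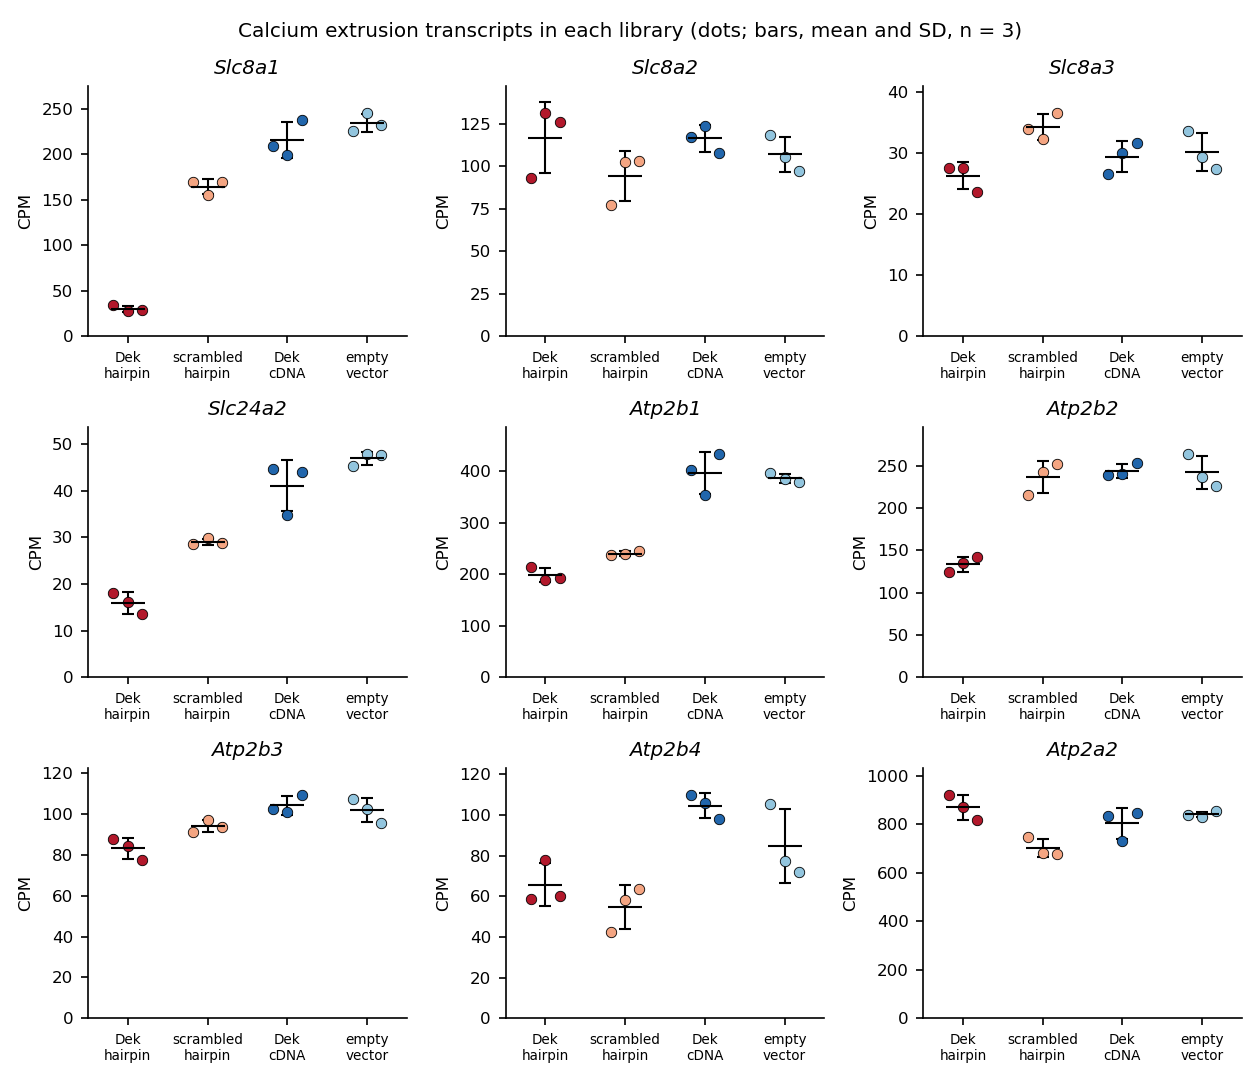
Level in CPM (vertical axes, from 0) of each of the 9 genes in the 3 libraries (dots) of each group (Dek hairpin and scrambled hairpin, then Dek cDNA and empty vector), with the mean and SD as bars (n = 3). For Slc8a1 the 3 Dek hairpin libraries sit between 28.1 and 34.1 CPM and the other 9 libraries between 155 and 246 CPM.

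Dek cDNA neurons were tested against empty vector neurons on libraries outside the comparison from which the genes were chosen. Earlier results of these data were known when that choice was made. At an adjusted p below 0.05, 0 of the 9 genes were called, in a comparison in which 1 of 14089 genes, Dek itself, was called (0.00710%). DESeq2 called 4 genes and limma-voom 1, with 0 of the 9 in each. In all genes 930 had an unadjusted p below 0.05. The log2FC of the 9 genes ran from −0.19 to 0.31, with a median of 0.01 beside 0.00 (0.00179) over all genes.

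Slc8a1 gave a log2FC of −0.12 (SE 0.07, edgeR adjusted p = 0.796). Slc24a2 was at 44.7, 34.8 and 43.9 CPM in Dek cDNA libraries, against 45.3, 47.9 and 47.6 CPM in empty vector libraries (log2FC −0.19, SE 0.09, adjusted p = 0.76). It was the 1 gene of the 9 whose groups did not overlap, where 11.7% of all genes tested did not overlap. Atp2b4 was at 109.9, 106 and 98.1 CPM in Dek cDNA libraries, against 105, 77.2 and 71.75 CPM in empty vector libraries. Its log2FC of 0.31 (SE 0.13, adjusted p = 0.714) was the highest of the 9. Empty vector replicate 1 decided that call: without it the log2FC was 0.49 and the adjusted p 0.043, whereas the other 5 fits that left out a library gave 0.20 to 0.35 and adjusted p of 0.598 to 1.

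The remaining 6 genes had log2FC from −0.06 to 0.13. Slc8a2 was at 117.5, 124 and 108 CPM in Dek cDNA libraries, against 118, 105 and 97.6 CPM in empty vector libraries (log2FC 0.13, SE 0.08, adjusted p = 0.814). Slc8a3 was at 26.6, 30.0 and 31.6 CPM in Dek cDNA libraries, against 33.5, 29.3 and 27.4 CPM in empty vector libraries (log2FC −0.03, SE 0.09, adjusted p = 0.973). Neither exchanger gene had a difference beyond the spread of its libraries. Atp2b1 was at 403, 353.5 and 434 CPM in Dek cDNA libraries, against 397, 386 and 379 CPM in empty vector libraries (log2FC 0.04, SE 0.07, adjusted p = 0.947). Atp2b2 was at 239, 240.0 and 253.5 CPM in Dek cDNA libraries, against 264, 237 and 226 CPM in empty vector libraries (log2FC 0.01, SE 0.06, adjusted p = 0.979). The Dek cDNA values of Atp2b1 lay on both sides of its empty vector values, and those of Atp2b2 lay inside the empty vector range. Atp2b3 was at 102, 101 and 109 CPM in Dek cDNA libraries, against 107.5, 102.5 and 95.8 CPM in empty vector libraries (log2FC 0.04, SE 0.06, adjusted p = 0.947). Atp2a2 was at 833.5, 731 and 847.5 CPM in Dek cDNA libraries, against 839, 831 and 853.5 CPM in empty vector libraries (log2FC −0.06, SE 0.06, adjusted p = 0.892). A p that misses the threshold does not show that the levels were equal.

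**Figure D2:**
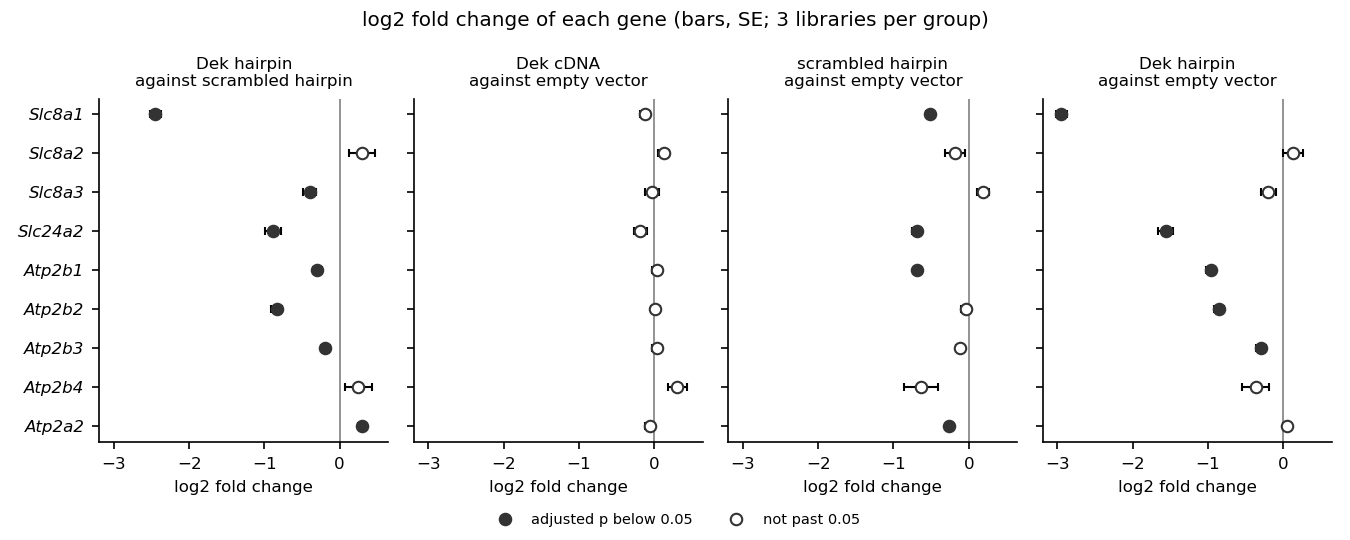
log2 fold change (horizontal axes) of each of the 9 genes with its SE in 4 comparisons of 3 libraries with 3. Filled dots have an edgeR adjusted p below 0.05 and open dots do not. The filling is a test only in Dek cDNA against empty vector and a description in the other comparisons. Slc8a1 lies at −2.45 in Dek hairpin against scrambled hairpin and at −0.12 in Dek cDNA against empty vector, where all 9 dots are open.

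**Figure D3:**
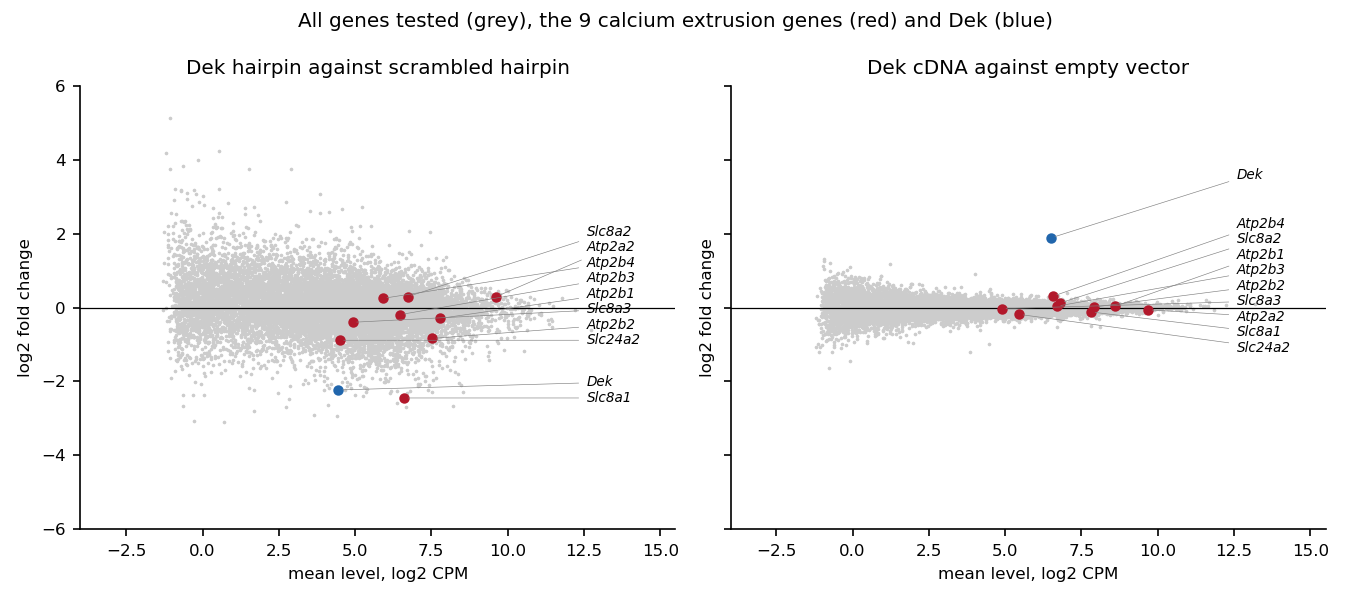
log2 fold change against mean level (log2 CPM) of every gene tested in Dek hairpin against scrambled hairpin (left, 14232 genes) and Dek cDNA against empty vector (right, 14089 genes), with the 9 genes in red and Dek in blue. Slc8a1 lies next to Dek at the lower edge on the left, and all 9 genes lie near 0 on the right.

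The 2 viruses' responses were set against each other in a fit of all 12 libraries, again as a description. The response to the Dek hairpin minus that to the Dek cDNA was called lower for 5 of the 9 genes and higher for 1, beside 22.7% lower and 20.4% higher of 14604 genes tested. The counts over all genes were 2972 higher and 3315 lower, and 3755 higher and 2733 lower with library size alone. The difference was −2.31 (SE 0.11) for Slc8a1, −0.83 (SE 0.10) for Atp2b2, −0.68 (SE 0.14) for Slc24a2 and 0.37 (SE 0.09) for Atp2a2, all on the log2 scale.

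The controls differed from each other as well. Of 14096 genes tested in scrambled hairpin against empty vector libraries, 21.3% were called higher and 21.8% lower, and 53.4% did not overlap. Of the 9 genes, 4 were called lower and 0 higher, with 5 wholly below and 4 overlapping. Atp2b1 was at a log2FC of −0.69 (SE 0.04), Slc24a2 at −0.69 (SE 0.06), Slc8a1 at −0.51 (SE 0.05) and Atp2a2 at −0.26 (SE 0.04). All 4 had transcripts with a GC content between 42.6% and 50.0%, while Slc8a2, Slc8a3, Atp2b2 and Atp2b3, none of which was called, had 53.7% to 58.7%. Atp2b4, with 47.8%, was wholly below but not called by the edgeR fit (−0.63, SE 0.23), whereas DESeq2, limma-voom and a joint edgeR fit of the 12 libraries called it lower. Corrected for transcript length and GC content, the values were −0.32 for Atp2b1, −0.41 for Slc24a2, −0.23 for Slc8a1 and −0.14 for Atp2a2. All 4 were still called lower, and Slc8a3 (0.25) and Atp2b2 (0.14) were called higher. Over all 14011 genes tested with that correction, 2531 were called higher and 2078 lower. The correction takes GC content and length together, and the part of either in these values was not tested. Hairpin and cDNA cultures also differed in Y-linked transcripts, 4 genes of which summed to 52.8 to 61.7 CPM in the 6 hairpin libraries and 92.4 to 112 CPM in the other 6. Of 10 GABAergic neuron markers, 8 were called higher and 1 lower in scrambled hairpin than in empty vector libraries. They summed to 2650 to 2850 CPM in scrambled hairpin and 2320 to 2370 CPM in empty vector libraries. Of 6 excitatory neuron markers, 0 were called higher and 3 lower. These summed to 484 to 586 CPM in scrambled hairpin and 676 to 779 CPM in empty vector libraries. The part of these markers in the values above was not tested. Promoter, cargo and culture cannot be told apart between the controls.

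Set against the empty vector instead, 5 of the 9 genes were called lower and 0 higher in Dek hairpin neurons, beside 33.5% lower and 34.0% higher of 14292 genes and 71.0% that did not overlap. Slc8a1 was at 13.0% of its empty vector level (log2FC −2.95, SE 0.07), Slc24a2 at 33.9% (−1.56, SE 0.10), Atp2b1 at 51.2% (−0.96, SE 0.06), Atp2b2 at 55.3% (−0.85, SE 0.07) and Atp2b3 at 81.7% (−0.29, SE 0.06). The GC and length correction brought Atp2b1 to −0.38, Slc24a2 to −1.13 and Slc8a1 to −2.52. Atp2a2, higher against the scrambled control, was at a log2FC of 0.05 (SE 0.05) against the empty vector. Its Dek hairpin values of 818 to 922 CPM overlapped the empty vector values of 831 to 853.5 CPM. This comparison shares its libraries with the others and is no independent support for them.

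Levels of different genes were compared after division by transcript length, in CPM per kilobase. Atp2a2 was the highest of the 9 in all 4 groups, at 206 ± 12.3 in Dek hairpin, 166 ± 9.05 in scrambled hairpin, 190 ± 15 in Dek cDNA and 199 ± 2.73 in empty vector libraries (mean ± SD, n = 3). In scrambled hairpin libraries Atp2b2 (36.1 ± 2.94) and Atp2b1 (33.7 ± 0.58) came next and overlapped, followed by Slc8a1 (26.7 ± 1.34), then Atp2b3 (21.7 ± 0.71) and Slc8a2 (20.0 ± 3.11), which overlapped, then Atp2b4 (9.06 ± 1.79) and Slc8a3 (8.06 ± 0.51), which overlapped, and Slc24a2 (4.57 ± 0.10). In Dek hairpin libraries Slc8a1 was eighth of the 9 at 4.94 ± 0.52, between Slc8a3 (6.18 ± 0.52) and Slc24a2 (2.51 ± 0.37), with no overlap between these neighbours, while Atp2b1 (27.8 ± 1.85) and Slc8a2 (24.8 ± 4.43), Slc8a2 and Atp2b2 (20.4 ± 1.36), and Atp2b2 and Atp2b3 (19.2 ± 1.17) overlapped. In Dek cDNA libraries Slc8a1 was at 35.0 ± 3.21 and overlapped Atp2b2 (37.3 ± 1.24). In empty vector libraries Slc8a1 ranked after Atp2a2 and Atp2b1, at 38.1 ± 1.65 and also overlapped Atp2b2 (37.0 ± 2.99). The rank of Slc8a1 depends on the length used: with the longest annotated transcript it was at 12.7 CPM per kilobase in empty vector libraries, below Atp2b2 (27.3), Atp2b3 (22.0) and Slc8a2 (20.4).

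The make-up of each family moved with these levels. The 3 SLC8 transcripts summed to 35.9 ± 3.74 CPM per kilobase in Dek hairpin libraries and 54.8 ± 3.03 in scrambled hairpin libraries. Slc8a1 made up 14.0% ± 3.05 of that sum in Dek hairpin libraries, against 48.8% ± 3.62 in scrambled hairpin libraries, and Slc8a2 made up 68.7% ± 5.65 against 36.5% ± 4.29. Slc8a2 was thus the most abundant SLC8 transcript in Dek hairpin libraries and Slc8a1 in the other 3 groups, although with the longest annotated transcript as length Slc8a2 led in every group. With that length Slc8a1 made up 5.76% of the sum in Dek hairpin libraries and 26.5% in scrambled hairpin libraries, and the sums overlapped, at 25.1 to 32.1 CPM per kilobase in Dek hairpin and 30.8 to 36.2 in scrambled hairpin libraries. The 4 pump transcripts summed to 78.3 ± 1.5 CPM per kilobase in Dek hairpin libraries and 100.6 ± 5.72 in scrambled hairpin libraries. Atp2b2 made up 26.1% ± 2.11 of the pump sum in Dek hairpin libraries and 35.9% ± 0.91 in scrambled hairpin libraries. It made up 27.8% ± 0.94 in Dek cDNA and 28.7% ± 0.43 in empty vector libraries. The scrambled hairpin share was thus the one that stood apart, and the Dek hairpin share was near those of the other groups.

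Between Dek cDNA and empty vector libraries, the shares of the 3 exchangers and 4 pumps were tested with an exact permutation test (two-sided, 7 tests, smallest possible p = 0.1, so the design cannot pass 0.05). Slc8a1 made up 52.4% of the SLC8 sum in Dek cDNA and 56.2% in empty vector libraries (exact p = 0.2, adjusted 0.467). Slc8a2 made up 37.2% in Dek cDNA and 33.4% in empty vector libraries (exact p = 0.2, adjusted 0.467). Atp2b4 made up 12.9% of the pump sum in Dek cDNA and 10.8% in empty vector libraries (exact p = 0.2, adjusted 0.467), and the other 4 shares had exact p of 0.3 to 1.

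**Figure D4:**
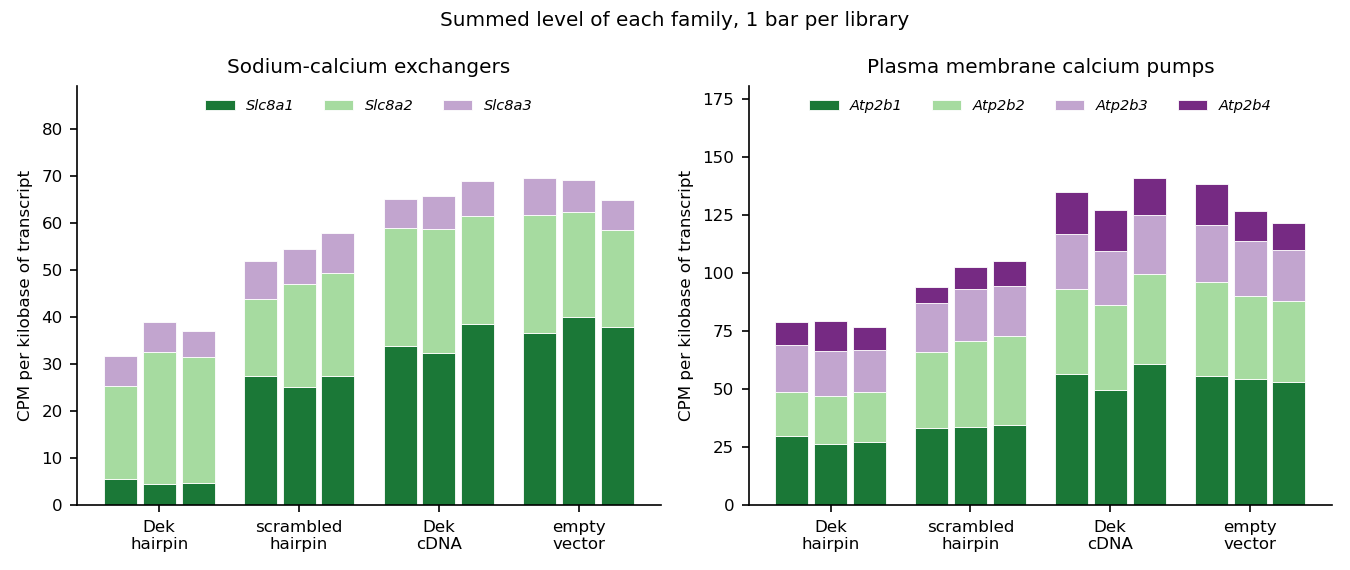
Summed CPM per kilobase (vertical axes, from 0) of the 3 SLC8 exchangers (left) and the 4 plasma membrane pumps (right), 1 stacked bar per library, 3 libraries per group. The Slc8a1 segment averages 4.94 CPM per kilobase in Dek hairpin libraries and 26.7 in scrambled hairpin libraries, while the Slc8a2 segment averages 24.8 and 20.0.

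Across the 12 libraries, which fall into 4 groups of 3 and so are not independent points, the transcripts did not move as a single block. The Pearson r of log2 CPM with Slc8a1 was 0.962 for Atp2b2, 0.951 for Slc24a2, 0.873 for Atp2b3 and 0.836 for Atp2b1, but 0.559 for Slc8a3, 0.361 for Atp2b4, −0.256 for Slc8a2 and −0.361 for Atp2a2. Among 11019 genes with a mean of at least 5 CPM, those most like Slc8a1 were Rabep1 (r = 0.998), Golga4 (0.998), Trim44 (0.998), Lpgat1 (0.997) and Tpr (0.997). Those most like Slc8a2, whose log2FC of 0.30 in Dek hairpin against scrambled hairpin was by a narrow margin the highest of the 9 (Atp2a2 0.29; corrected for transcript length and GC content, Atp2b4 0.39 and Atp2a2 0.34 lay above Slc8a2 at 0.27), were Tmem44 (0.929), Sdc4 (0.913), Lmnb1 (0.899), Tpcn1 (0.893) and Sh3pxd2b (0.888).

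Other genes that handle calcium were taken from 7 lists of 46 genes, none of them among the 9, and tested over all genes. The lists were written with earlier results of these data known. Genes of the longer lists are named by their smallest adjusted p in Dek hairpin against scrambled hairpin. Adjusted p of list genes in that comparison are therefore a description and no independent support. In Dek hairpin against scrambled hairpin libraries 42 were tested, of which 11 were called higher and 15 lower (median log2FC 0.03 beside −0.00108 for all genes), and 16 were not called. The share called higher was that of all genes, 26.2%, and 28.5% of all genes were called lower, so the counts by list below are read as descriptions beside these shares. In Dek cDNA against empty vector libraries 0 of 41 were called. The mitochondrial list had 5 of 8 lower and 0 higher (median −0.44), and the calpain list 3 of 4 higher and 1 lower (median 1.08).

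Basigin (Bsg) and neuroplastin (Nptn) are the accessory subunits that plasma membrane pumps need to reach the surface. Nptn fell to 289 ± 14.2 CPM in Dek hairpin libraries, against 369 ± 4.66 CPM in scrambled hairpin libraries (log2FC −0.37, SE 0.05, adjusted p = 8.25e-05, n = 3 each). Bsg fell to 477 ± 22.5 CPM, against 534 ± 23.1 CPM in scrambled hairpin libraries (log2FC −0.18, SE 0.05, adjusted p = 0.016). Of the other SLC24 exchangers, Slc24a4 rose to 9.40 ± 0.75 CPM in Dek hairpin libraries, against 6.18 ± 1.27 CPM in scrambled hairpin libraries (log2FC 0.59, SE 0.16, adjusted p = 0.00842). Slc24a3 (log2FC −0.16, SE 0.06, adjusted p = 0.05) and Slc24a5 (−0.04, SE 0.22, adjusted p = 0.89) did not pass, and Slc24a1, at 0.29 CPM in Dek hairpin and 0.52 CPM in scrambled hairpin libraries, was under the filter. The calls of Bsg and Slc24a4 depended on the control: in Dek hairpin against empty vector libraries the log2FC was 0.13 for Bsg (SE 0.05, adjusted p = 0.0531) and 0.10 for Slc24a4 (SE 0.12, adjusted p = 0.493).

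At the ER, 5 of 17 tested genes rose and 4 fell (median log2FC 0.16), near the 26.2% higher and 28.5% lower of all genes. Sarcolipin (Sln), a small inhibitor of SERCA known from muscle, rose to 12.8 ± 3.02 CPM in Dek hairpin libraries, against 4.90 ± 0.62 CPM in scrambled hairpin libraries (log2FC 1.37, SE 0.18, adjusted p = 4.56e-05). The store-operated channel subunit Orai2 (log2FC 0.33, SE 0.07, adjusted p = 0.00266), the inositol trisphosphate receptor Itpr1 (0.38, SE 0.10, adjusted p = 0.00538) and the calsequestrin Casq1 (1.15, SE 0.30, adjusted p = 0.00709, at a mean of 1.40 CPM in Dek hairpin libraries) also rose. Calreticulin (Calr), the main calcium-binding protein of the ER lumen outside muscle, fell to 319 ± 29.2 CPM in Dek hairpin libraries, against 578 ± 31.5 CPM in scrambled hairpin libraries (log2FC −0.87, SE 0.07, adjusted p = 1.03e-06). The ryanodine receptor genes Ryr2 (log2FC −0.69, SE 0.10, adjusted p = 9.27e-05) and Ryr3 (−0.30, SE 0.10, adjusted p = 0.0219) fell, as did Casq2 (−2.37, SE 0.40, adjusted p = 3.43e-04), which was low in all groups (0.33 CPM in Dek hairpin and 1.75 CPM in scrambled hairpin libraries). Of the Golgi list, Tmem165, a proposed cation exchanger, rose (log2FC 0.25, SE 0.09, adjusted p = 0.026), Atp2c1, the Golgi calcium and manganese pump, was at 0.13 (SE 0.06, adjusted p = 0.0983), and Atp2c2 was under the filter.

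Among mitochondrial transporters, Micu3, a brain-enriched regulator of the calcium uniporter, fell to 27.2 ± 1.97 CPM in Dek hairpin libraries, against 73.7 ± 0.41 CPM in scrambled hairpin libraries (log2FC −1.46, SE 0.07, adjusted p = 1.46e-08). Letm1, an inner membrane cation exchanger, fell to 52.4 ± 3.70 CPM, against 112 ± 2.00 CPM in scrambled hairpin libraries (log2FC −1.11, SE 0.06, adjusted p = 6.32e-08). Micu2, another regulator (log2FC −0.53, SE 0.06, adjusted p = 1.52e-05), and Smdt1, a uniporter subunit (−0.64, SE 0.13, adjusted p = 0.00364), fell as well. The fall of Smdt1 depended on the control. Dek hairpin libraries held 73.7 to 106.7 CPM of Smdt1, on both sides of the 94.2 to 96.7 CPM in empty vector libraries. Summed over the 8 genes, the list was at 306 to 344 CPM in Dek hairpin libraries, against 485 to 495 CPM in scrambled hairpin libraries.

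Of 6 cytosolic calcium-binding genes 1 rose and 3 fell (median log2FC −0.09). Calm3, a gene for calmodulin, which activates the plasma membrane pumps, was lower in Dek hairpin than in scrambled hairpin libraries (log2FC −0.13, SE 0.04, adjusted p = 0.0197). Its sign depended on the control. Dek hairpin libraries held 2041 to 2167 CPM, below the scrambled hairpin libraries (2237 to 2334) and above the empty vector libraries (1859 to 1926). Calretinin, Calb2, fell (log2FC −0.75, SE 0.09, adjusted p = 1.42e-05), while parvalbumin, Pvalb, rose to 4.59 ± 1.81 CPM in Dek hairpin libraries, against 1.01 ± 0.26 CPM in scrambled hairpin libraries (log2FC 2.16, SE 0.35, adjusted p = 3.75e-04). The GABAergic neuron markers, which include neurons that use these 2 proteins, summed to 2580 to 2960 CPM in Dek hairpin and 2650 to 2850 CPM in scrambled hairpin libraries, with 3 of 10 called higher and 2 lower, and their part in these values was not tested. Calpains are calcium-dependent proteases. Capn1 rose to 14.5 ± 0.35 CPM in Dek hairpin libraries, against 4.66 ± 0.95 CPM in scrambled hairpin libraries (log2FC 1.62, SE 0.15, adjusted p = 2.22e-06). The small regulatory subunit Capns1 rose (log2FC 0.53, SE 0.05, adjusted p = 4.38e-06), as did the calpain inhibitor calpastatin, Cast (1.98, SE 0.27, adjusted p = 6.64e-05, at 3.68 ± 0.91 CPM in Dek hairpin and 0.91 ± 0.16 CPM in scrambled hairpin libraries). Capn2 fell (log2FC −0.34, SE 0.06, adjusted p = 6.96e-04).

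**Figure D5:**
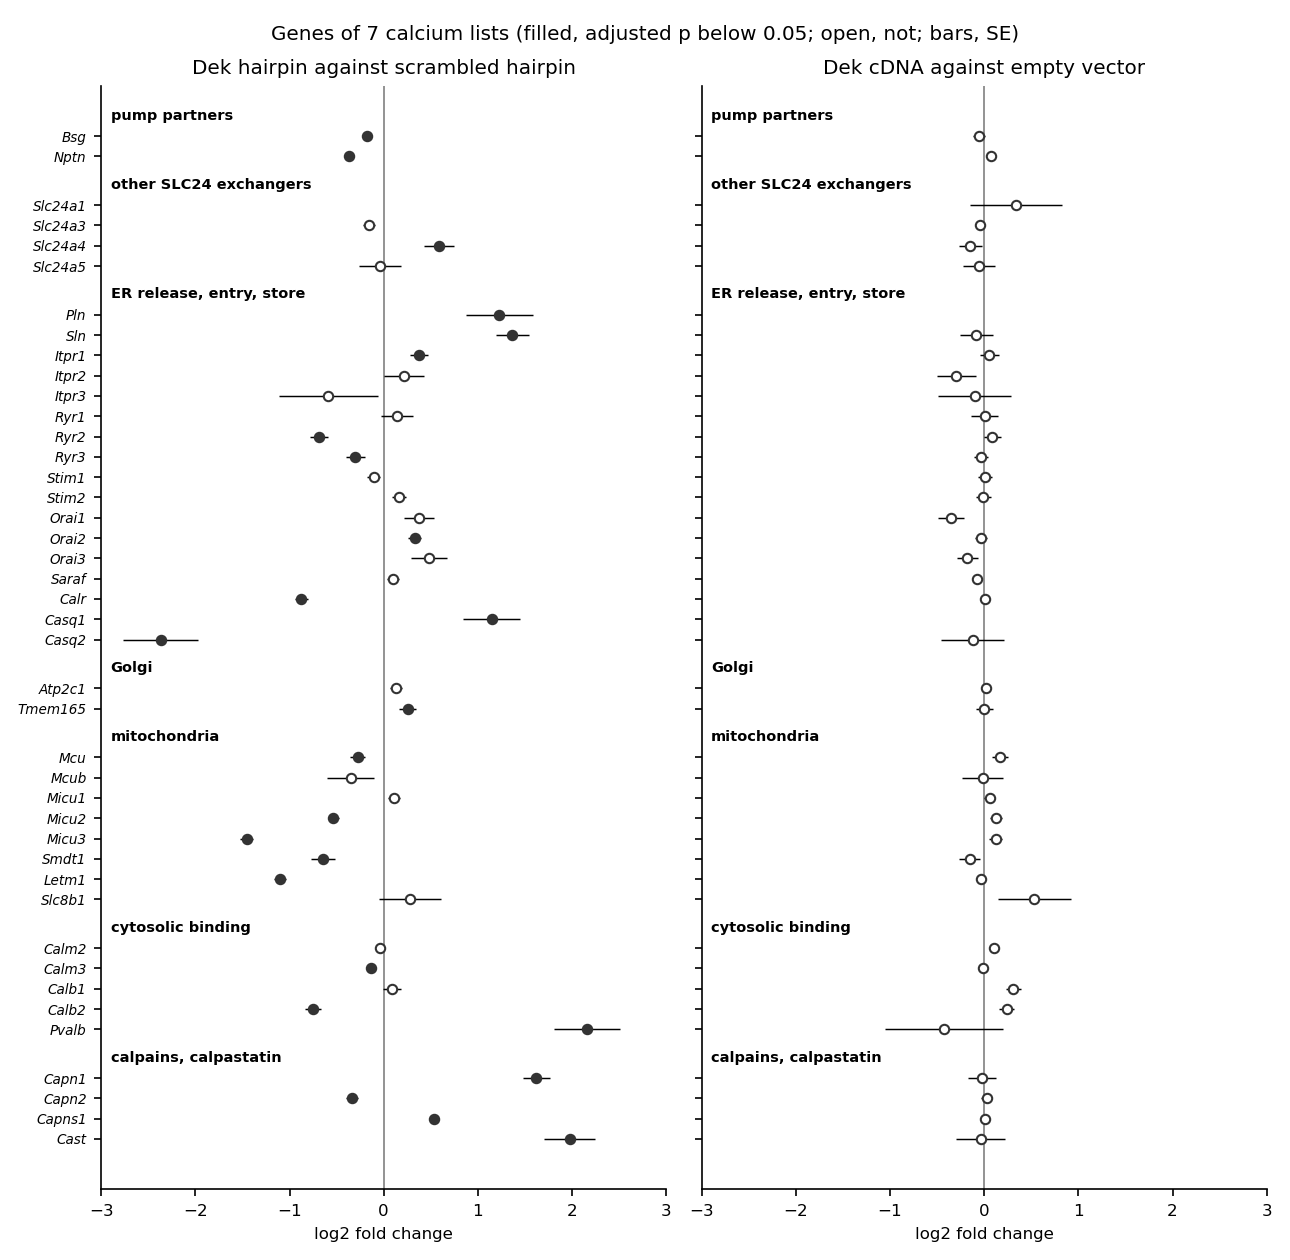
log2 fold change (horizontal axes) with its SE of the tested genes of the 7 calcium lists, without 1 gene that is not reported here, in Dek hairpin against scrambled hairpin (left) and Dek cDNA against empty vector (right), filled where the edgeR adjusted p was below 0.05. On the left 25 of 41 genes drawn are filled, with Micu3 at −1.46 and Capn1 at 1.62, and on the right 0 of 40 are filled.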

How the data were processed

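RNA-seq of 12 wells was analysed in 4 groups of 3 libraries, each prepared from 200 ng of total RNA. The authors deposited estimated counts for each gene. The submitters' processing notes list Salmon, DESeq2 and the build mm10, with no tool version. The counts are not normalized, and 38.6% are not whole numbers. The strand setting is not given in the sources used here. Estimated counts were rounded. Groups came from the treatment and title labels. In each comparison genes were kept by filterByExpr, scaled by TMM and tested in edgeR 4.0.16 (R 4.3.3) by quasi-likelihood F test with robust dispersion, and calls were made at p below 0.05 after Benjamini-Hochberg adjustment across the genes of that comparison. SE is the absolute log2FC divided by the square root of F. Log2 CPM used a prior count of 2. Lengths, GC content and 3′ UTRs came from GENCODE vM21 (GRCm38), with the mean length of coding transcripts of the basic set, matched for 23792 of the gene IDs.

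The 9 genes and the lists were chosen with earlier results of these data known. Genes named are the 9, Dek, every gene of a list of at most 4 genes, otherwise up to 4 per direction with the smallest adjusted p in Dek hairpin against scrambled hairpin, any list gene called in Dek cDNA against empty vector, and the 5 genes of highest r. Of these, 1 list gene, kept in the counts, and 1 site are not reported here. Alternatives were size factors of DESeq2 1.42.0, library size alone, the DESeq2 Wald test, limma-voom (limma 3.58.1), no filter, a minimum of 5 CPM in 3 libraries, a joint fit of the 12 libraries, a replicate block, offsets for GC content and length (mgcv 1.9.3), and each library left out. The fit was also run on simulated counts in which few genes changed. Such counts cannot speak to the scaling of the hairpin libraries, where many genes were called. Exact tests used scipy 1.17.1 and figures matplotlib 3.10.9.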

Additional observations from a re-analysis of the deposited data

How the results depend on the processing

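Leaving out each library in turn gave 6 to 8 of the 9 genes called in Dek hairpin against scrambled hairpin, beside 6723 to 7856 of all genes. In Dek cDNA against empty vector the count of the 9 moved between 0 and 1, and 5 log2FC near 0 turned their sign. These ranged from −0.0952 to 0.0493 for Slc8a3, −0.100 to 0.00242 for Atp2a2, −0.0295 to 0.116 for Atp2b1, −0.0329 to 0.0769 for Atp2b2 and −0.00666 to 0.0719 for Atp2b3. Over all genes that comparison called 1 gene, 4 by DESeq2, 7 with no filter, 2 after the GC and length correction, and 1 to 7 with a library left out. All 144 log2FC of the 9 genes under the alternatives kept their sign in Dek hairpin against scrambled hairpin, and 140 of 144 did in scrambled hairpin against empty vector, where the exceptions were all for Atp2b2. In Dek hairpin against empty vector 141 of 144 did, with exceptions for Atp2a2 and Atp2b4. Atp2a2 was called higher in Dek hairpin against empty vector with library size alone and after the GC and length correction.

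The replicate numbers were not shown to pair the wells: deviations of same-numbered libraries correlated at 0.30, 0.13 and 0.07 in Dek hairpin and scrambled hairpin, and at −0.02, −0.06 and −0.02 in Dek cDNA and empty vector. With the replicate block 9 of the 9 genes were called in Dek hairpin against scrambled hairpin (Slc8a2 and Atp2b4 added, both higher). Over all 14232 genes tested there, the block called 4208 higher and 4412 lower, beside 3730 and 4060 without it. The 9 genes were chosen from this comparison, so nothing is read from their count. In Dek cDNA against empty vector the block called 0 of the 9. There, 11 genes of all were called with the block and the GC and length correction together. In scrambled hairpin against empty vector the same pair of settings called 1720 genes higher and 1549 lower, beside 2996 and 3076 without them, and 3 of the 9. With 3 libraries per group, small differences were not detectable: in Dek cDNA against empty vector, SE of the 9 log2FC ran from 0.06 to 0.13.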

Other observations

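Between the 2 control groups, 19 of 41 tested genes of the calcium lists were called, 11 higher and 8 lower in scrambled hairpin libraries than in empty vector libraries, beside 21.3% higher and 21.8% lower of all genes. Atp2c1, the Golgi calcium and manganese pump, was at 94.0 ± 6.49 CPM in scrambled hairpin libraries and 132 ± 4.35 CPM in empty vector libraries (log2FC −0.49, SE 0.05, edgeR adjusted p = 1.31e-05). The ryanodine receptor Ryr2 was lower too (log2FC −0.60, SE 0.10, adjusted p = 6.85e-04). Smdt1, a subunit of the mitochondrial uniporter, was at 135 ± 3.99 CPM in scrambled hairpin libraries and 95.6 ± 1.3 CPM in empty vector libraries (log2FC 0.50, SE 0.04, adjusted p = 2.37e-06), and in Dek hairpin libraries it was at 87.2 ± 17.3 CPM (log2FC −0.13, SE 0.12, adjusted p = 0.378 against the empty vector). Capns1 was higher in scrambled hairpin than in empty vector libraries (log2FC 0.36, SE 0.05, adjusted p = 5.34e-05) and, in Dek hairpin against empty vector libraries, at a log2FC of 0.91 (SE 0.05, adjusted p = 1.54e-08). Calm3 was at 0.27 (SE 0.03, adjusted p = 2.73e-05) between the controls and at 0.15 (SE 0.04, adjusted p = 0.00845) in Dek hairpin against empty vector libraries, so its sign depended on the control. The genes of these sentences were picked after their values were seen, from those that the rule names.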
